A study of Homo sapiens with 8 samples.

Results

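The 4 RNA sequencing libraries compared here come from LK2 cells, an established line of human lung squamous carcinoma, made to express DNp63 at a high level from a constitutive vector or at a lower level from a doxycycline-controlled vector. They are 4 of the 8 libraries of the study and were chosen by their labels, not by a measured value. Both constitutive DNp63 libraries carry the vector pLEX_306 in replicate 1 and pLEX_307 in replicate 2. Both induced DNp63 libraries carry the pLIX_403 vector for DNp63 and were kept with doxycycline at 2 µg/ml for 6 days. The other 4 libraries are the controls of these systems. In 2 of them pLEX_306 and pLEX_307 carry GFP, and 2 are the pLIX_403-DNp63 cells after the same 6 days without doxycycline, called uninduced below.

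The transcription factor p63, a relative of p53 encoded by TP63, maintains the basal cells of stratified epithelia. DNp63 is its form without the N-terminal transactivation domain, and it is the main form in squamous carcinomas. It binds DNA elements of the p53 family and is known to raise keratin, desmosome and matrix adhesion genes and to lower other genes. The direct comparison, constitutive minus induced DNp63, describes how the cells with more TP63 differ from those with less. Because vector, cell population, drug and TP63 level all change together in it, their parts cannot be told apart, and no library had doxycycline without a DNp63 vector. The control comparison, GFP minus uninduced, runs in the same direction without the drug and is set beside each result as the system background. It is not free of DNp63, since the uninduced cells carry the DNp63 vector and held more TP63 than the GFP cells, as given below. Subtracting the control comparison from the direct comparison gives the difference between the constitutive effect (constitutive DNp63 minus GFP) and the induced effect (induced minus uninduced).

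Library totals ran from 2758158 to 10372248 counts, with 3348421 and 4924534 in the constitutive and 8169745 and 5229957 in the induced DNp63 libraries, replicates 1 and 2. Of 26760 genes in the count table, 12303 had enough counts to be tested. The constitutive libraries differed more from each other than the induced libraries did: the median absolute log2 difference between replicates was 0.41 constitutive, 0.37 with GFP, 0.22 induced and 0.17 uninduced. All libraries come from 1 line, and p-values measure only the spread between these libraries. In the GFP and constitutive groups the 2 libraries carry different vectors, pLEX_306 and pLEX_307, so their spread also holds any difference between these vectors. For the uninduced and induced groups the labels do not say that the 2 libraries are separate cultures, so their spread may be technical. Of 11 squamous carcinoma markers KRT14 had no count in any library, and the summed level of the 11 was 364 to 622 CPM (counts relative to the scaled library size) in the controls, 422 to 493 induced and 1302.1 to 1665.3 constitutive. SOX2, 1 of the 11, makes up most of the sum outside the constitutive libraries. Without it the other 10 summed to 70.1 to 86.1 CPM with GFP, 46.2 to 47.1 uninduced, 144 to 156 induced and 1205.7 to 1597.0 constitutive. Of 7 fibroblast markers COL3A1 and DCN were at 0 in all 8 libraries, and the list summed to 8.4 to 30.8 CPM, most of it COL1A1 (54 to 150 counts per library). Among 5 immune markers CD3E was at 0, and CD68 carried most of a sum of at most 3.71 CPM. Of 4 endothelial markers PECAM1 and CDH5 were at 0, while KDR held 3 to 22 counts in each GFP, uninduced and induced library and 0 in both constitutive ones. Of 6 markers of other lung epithelium SFTPC, SCGB1A1, MUC5B and NAPSA were at 0. The part of these markers in the results was not tested.

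TP63 was higher in both constitutive libraries than in either induced library. It was at 1850.1 and 3815.7 CPM in the constitutive and 412 and 422 CPM in the induced libraries, against 0.739 and 1.91 CPM with GFP and 12.7 and 14.8 CPM uninduced. No 2 groups overlapped. The direct log2 difference was 2.76 ± 0.32 (SE, n = 2 per group; edgeR adjusted p = 0.00149), and it missed the threshold without induced replicate 1 (adjusted p = 0.0542). The ratio of the means was 6.79, but constitutive replicate 1 stood 4.43 times and replicate 2 9.14 times above the induced mean, so the constitutive libraries themselves differed 2.06 times in TP63. In the controls TP63 ran the other way, lower with GFP by 3.23 on the log2 scale, a difference that missed the threshold (edgeR adjusted p = 0.165). The GFP libraries together held 11 TP63 counts and the uninduced ones 215. The control comparison, and the difference built on it, therefore contain this TP63 gap. The gene's counts hold endogenous and vector transcripts together.

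In the direct comparison 1373 genes, 11.2% of those tested, passed the test at an adjusted p below 0.05. Of these, 719 (5.84%) were higher and 654 (5.32%) lower with constitutive DNp63, with median log2 differences of 1.54 and −1.17. In the control comparison 1 gene passed, MDM2, which encodes the ubiquitin ligase of p53 (0.00813% of genes, higher with GFP). At an unadjusted p below 0.05 the control comparison held 1120 genes, 9.10% of those tested, and DESeq2 called 44 higher and 13 lower in it. The difference between both comparisons passed for 31 genes with a higher and 36 with a lower value, 0.545% of those tested. An unadjusted edgeR p below 0.05 in it was held by 384 of the 719, 429 of the 654 and 1496 (12.2%) of all tested genes. The difference contains the direct comparison that chose the 719 and 654, so their larger shares are no separate support. The counts of the direct comparison changed with the libraries in the fit. They fell without either induced library and also without either uninduced library, which the direct comparison does not use. They rose without either GFP library or constitutive replicate 2. All groups share the estimate of spread, and a group with 1 library adds nothing to it. A call lost in such a fit therefore need not mean a changed log2 difference. With library totals as the only scaling the split was 939 higher and 490 lower. GFP and constitutive libraries of the same number share a pLEX vector. With that vector as a replicate block within the constitutive system, 1404 genes were higher and 1376 lower directly, 77 and 27 in the controls, and 208 and 264 in the difference.

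The control libraries differed in the same direction as the DNp63 libraries for most called genes, but by less. Of the 719 genes higher with constitutive DNp63, 74.3% were also higher in GFP than in uninduced libraries by sign alone, and their median control difference was 0.34. Of the 654 lower genes, 72.3% had the same sign in the controls, with a median of −0.18. Over all tested genes the sign was shared by 63.5%. The control difference was more than 0.5 of the direct one for 158 of the higher genes (22.0%) and 93 of the lower genes (14.2%). Across all 12303 genes the direct and control differences had a Pearson r of 0.31 and a Spearman rho of 0.34. This is a description across genes, which are not independent replicates, and the comparisons share no library.

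**Figure D1:**
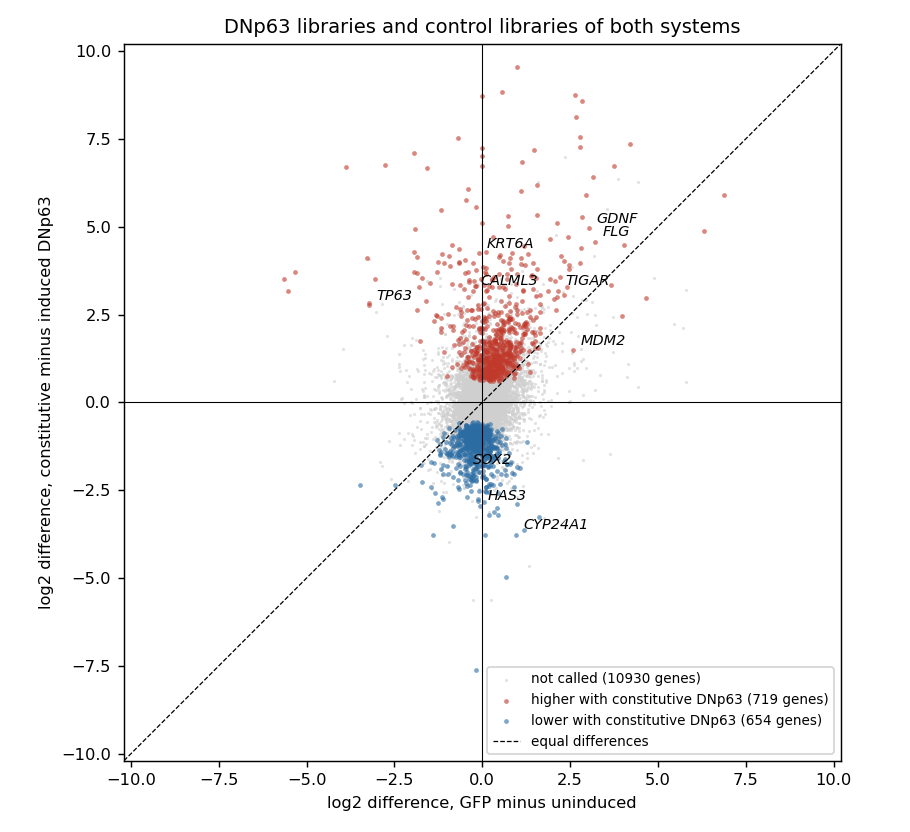
Log2 difference of each of 12303 tested genes between constitutive and induced DNp63 libraries (vertical) against that between GFP and uninduced libraries (horizontal), with the 719 higher genes in red, the 654 lower genes in blue and equal differences on the dashed line. Most coloured points lie near a control difference of 0 and above or below the dashed line, while MDM2 lies to its right, and values of genes with very few counts depend on the fitted prior.

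Genes called in the direct comparison whichever of the 8 libraries was left out numbered 31, 0.252% of those tested, with 14 higher and 17 lower. The same rule left no gene in the control comparison or in the difference between both. Their highest adjusted p over the 8 leave-out fits ran from 0.0248 to 0.0467. The DNp63 groups did not overlap for any of the 31, but these were chosen by their difference in the same libraries, so this is no further support. The 31 are also the genes called in the fit without induced replicate 1, so that fit alone sets their number.

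**Figure D2:**
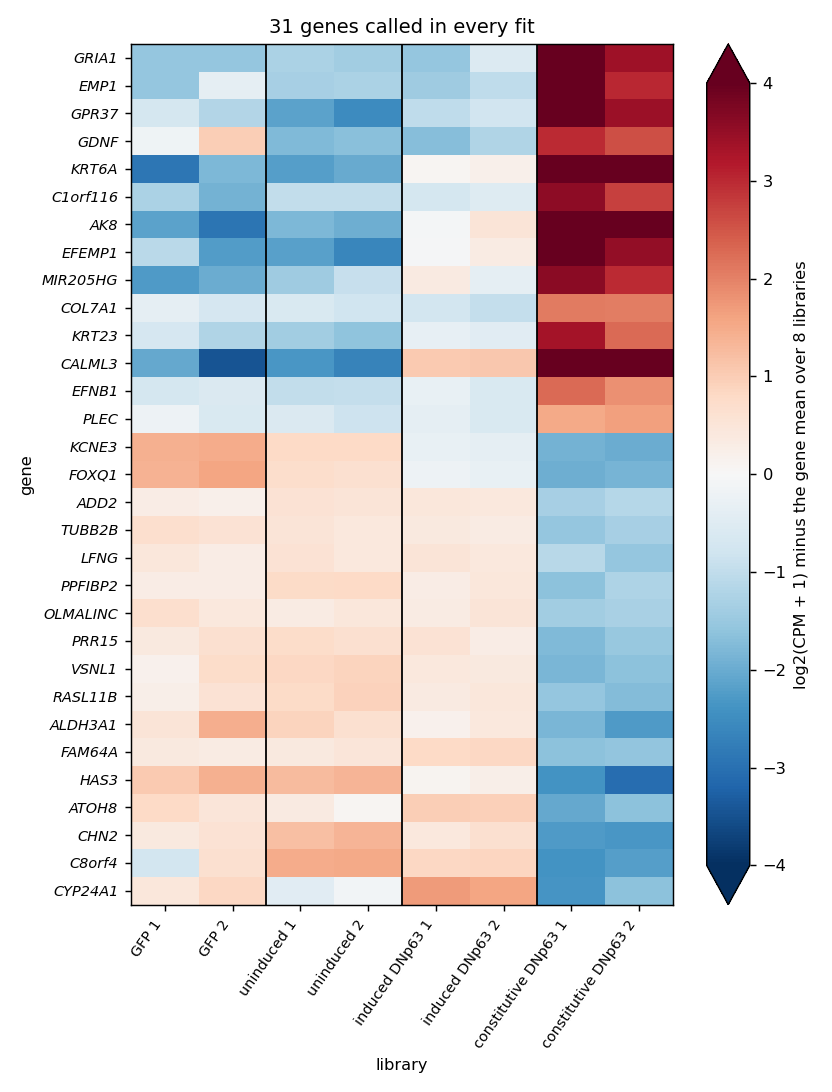
The 31 genes called in every fit (rows, ordered by their direct log2 difference) in the 8 libraries (columns), coloured by log2(CPM + 1) minus the gene's mean over the libraries. The constitutive DNp63 columns stand apart from the other 6, red for the 14 higher genes and blue for the 17 lower ones.

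Among the 14 higher genes, keratins, a calmodulin-like protein and anchoring proteins of stratified epithelium stood beside neural and growth factor genes. KRT6A, a keratin of wounded and stratified epithelium, was at 557 and 395 CPM constitutive, 24.0 and 26.2 CPM induced, 4.23 and 4.96 CPM uninduced and 2.22 and 5.93 CPM with GFP. Its direct log2 difference was 4.25 ± 0.30 (SE, n = 2 per group; edgeR adjusted p = 3.30e-04), against −0.08 in the controls. Its count is uncertain because KRT6B and KRT6C are almost identical in sequence. KRT23, a keratin of simple epithelia, was at 2498.5 and 1186.9 CPM constitutive and 197 and 181 CPM induced. Its direct difference was 3.28 ± 0.34, and the control difference 0.58. CALML3, a calmodulin relative found in stratified epithelium, was at 451 and 552 CPM constitutive, 55.1 and 55.9 CPM induced and 1.48 to 5.54 CPM in the controls. It was thus high in both DNp63 groups and higher, by 3.18 ± 0.31 on the log2 scale, in the constitutive one.

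Anchoring proteins followed. COL7A1, the collagen of anchoring fibrils below the epidermis, was at 18.3 and 17.8 CPM constitutive and 1.73 and 1.38 CPM induced, a log2 difference of 3.5 ± 0.41 (SE, n = 2 per group; edgeR adjusted p = 0.00153). PLEC, which encodes the hemidesmosome linker plectin, was at 593 and 656 CPM constitutive and 164 and 137 CPM induced, a difference of 2.05 ± 0.21. Their control differences were 0.28 and 0.32. The induced effects, −0.19 and 0.24, did not pass the test. EFEMP1, the matrix protein fibulin-3, was at 210 and 121 CPM constitutive, 9.39 and 12.6 CPM induced and 0.778 to 4.06 CPM in the controls. Its direct difference was 3.92 ± 0.38. EMP1, an epithelial membrane protein, was at 62.3 and 31.4 CPM constitutive and under 1 CPM induced (0.494 and 0.984), a difference of 6.02 ± 0.58.

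Receptor, ligand and less characterised genes made up the rest. EFNB1, the ephrin-B1 ligand, was at 161 and 118 CPM constitutive, 26.4 and 21.0 CPM induced and 15.7 to 21.6 CPM in the controls. The log2 difference was 2.55 ± 0.23 (SE, n = 2 per group; edgeR adjusted p = 6.09e-04), against 0.37 in the controls. GPR37, an orphan receptor, was at 937 and 334 CPM constitutive and 14.3 and 17.1 CPM induced, a difference of 5.34 ± 0.46. GRIA1, a glutamate receptor subunit, had 367 counts in both constitutive libraries together and 5 in both induced libraries, with 0 and 2 in the GFP and uninduced libraries. Its difference was 6.76 ± 0.78, or 10.99 without induced replicate 2, the library that held all 5 induced counts. GDNF, a neurotrophic factor, was at 53.1 and 40.2 CPM constitutive and 1.11 and 1.97 CPM induced, a difference of 4.96 ± 0.46. In GDNF the controls differed too, with 5.17 and 12.7 CPM under GFP and 1.01 and 1.17 CPM uninduced, a log2 difference of 3.05 at an adjusted p of 0.165. C1orf116 and AK8, an adenylate kinase, had direct differences of 4.17 ± 0.38 and 4.13 ± 0.35.

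MIR205HG, the host transcript of the microRNA miR-205 of basal epithelia, was at 57.4 and 37.0 CPM constitutive, 5.19 and 2.75 CPM induced, 0.805 and 1.56 CPM uninduced and 0 and 0.212 CPM with GFP. The log2 difference was 3.52 ± 0.41 (SE, n = 2 per group; edgeR adjusted p = 0.0015). In the controls 1 count with GFP stood against 20 uninduced, a ratio of 0.103 (95% exact interval 0.00248 to 0.642, counting error only). The libraries measure the polyadenylated host transcript, not the mature microRNA, whose sequence is shown because it is the known product of this locus (RefSeq, GRCh38.p14, chr1:209432166-209432187, plus strand), with the seed, bases 2 to 8, in capitals.
hsa-miR-205-5p: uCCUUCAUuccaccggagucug

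The 17 genes that were lower with constitutive DNp63 in every fit included enzymes, a hyaluronan synthase and neural genes. CYP24A1, the enzyme that inactivates vitamin D, was at 4.29 and 7.56 CPM constitutive and 87.6 and 79.1 CPM induced. It stood between them in the controls, at 18.5 and 24.2 CPM uninduced and 35.8 and 47.2 CPM with GFP. Its direct log2 difference was −3.77 ± 0.31 (SE, n = 2 per group; edgeR adjusted p = 5.57e-04), against 0.96 in the controls. HAS3, a hyaluronan synthase, was at 20.9 and 12.8 CPM constitutive, 123 and 132 CPM induced and at least 232 CPM in each control library. The direct difference was −2.94 ± 0.26 and the control difference −0.06. ALDH3A1, an aldehyde dehydrogenase of the cornea and airway, was at 1793.6 and 1327.3 CPM constitutive, 7218.5 and 8530.5 CPM induced and 9037.2 to 17547.6 CPM in the controls, a direct difference of −2.34 ± 0.30.

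The other genes of this set were also lowest in the constitutive libraries, and LFNG and PRR15 among them had similar levels in the other 3 groups. FAM64A, a gene of proliferating cells also called PIMREG, was at 9.43 and 9.89 CPM constitutive and 54.8 and 56.3 CPM induced, with 39.8 to 44.4 CPM in the controls. Its direct log2 difference was −2.52 ± 0.22 (SE, n = 2 per group; edgeR adjusted p = 5.57e-04). ATOH8, a basic helix-loop-helix factor, was at 2.00 and 2.91 CPM constitutive, 23.5 and 23.0 CPM induced and 12.1 to 20.3 CPM in the controls, a difference of −3.20 ± 0.33. LFNG, the Notch-modifying glycosyltransferase lunatic fringe, was at 53.7 and 39.0 CPM constitutive and 168 and 157 CPM induced, a difference of −1.81 ± 0.21. Neural members were VSNL1, a neuronal calcium sensor (−2.18), CHN2, a Rac regulator (−3.51), and TUBB2B, a tubulin of developing neurons (−1.80). PRR15, RASL11B, PPFIBP2, OLMALINC and C8orf4 completed those named by the rule, at −2.12, −2.29, −1.82, −1.83 and −3.76. KCNE3 (−1.61), FOXQ1 (−1.69), ADD2 (−1.70) and TUBB2B lay outside the rule and are named because they complete the 31. KCNE3 and FOXQ1 fell stepwise over GFP, uninduced, induced and constitutive libraries. Group means in that order were 656, 414, 188 and 61.6 CPM for KCNE3 and 322, 181, 95.3 and 29.6 CPM for FOXQ1. CHN2 and C8orf4 were highest uninduced, at means of 27.7 and 35.2 CPM, against 15.5 and 12.7 CPM with GFP.

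**Figure D3:**
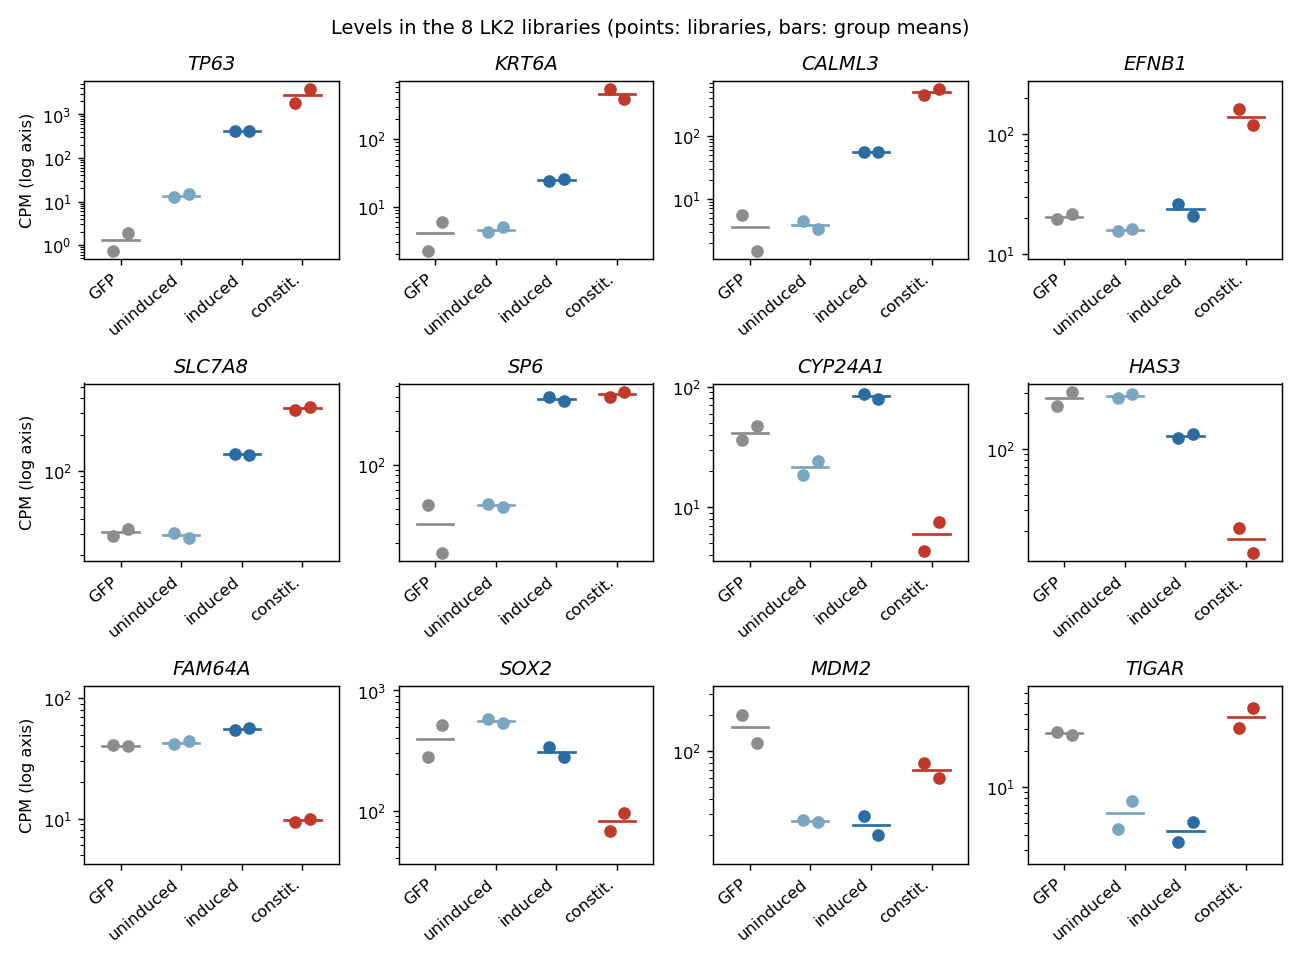
CPM of 12 genes on logarithmic axes in the 8 libraries, as points by group with bars at the group means. KRT6A, CALML3 and SLC7A8 stand higher in induced than in uninduced libraries and higher again in constitutive ones, SP6 is alike in both DNp63 groups, CYP24A1 is highest induced and lowest constitutive, and MDM2 and TIGAR are high in both groups of the constitutive system.

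Markers of squamous and basal epithelium were the group with the largest share of called genes among the lists examined. Of 26 listed members 17 were tested, and 15 were higher and 1 lower with constitutive DNp63 (94.1%, against 11.2% of all tested genes). Their median log2 difference was 3.07, against 0.03 for all tested genes, and their control median was 0.73. The filter on low counts keeps a gene with enough counts in 1 group alone. KRT5 passed it only through the constitutive libraries, so the share called and the median depend in part on the filter. CLCA2, a membrane protein of stratified epithelium and known p63 target, was at 35.4 and 131 CPM constitutive, 4.45 and 3.34 CPM induced and 0 to 0.212 CPM in the controls, a difference of 4.39 ± 0.59 (SE, n = 2 per group; edgeR adjusted p = 0.00344). KRT5, the basal keratin, was at 398 and 18.8 CPM constitutive and 0.494 and 0.393 CPM induced. The constitutive libraries thus disagreed strongly in KRT5, and its log2 difference of 8.76 ± 1.42 became 5.31 without constitutive replicate 1. SERPINB5, the serpin maspin, was at 8.86 and 6.4 CPM constitutive and 1.11 and 0.590 CPM induced, a difference of 3.07 ± 0.59, with a control difference of 2.34. TRIM29, a cytoplasmic protein of basal cells outside the rule for named genes and chosen after its values were seen, was at 42.6 and 72.0 CPM constitutive, 21.6 and 22.8 CPM induced and 3.6 to 8.68 CPM in the controls, a difference of 1.37 ± 0.33. FGFBP1, a carrier of fibroblast growth factors and the 1 lower member, was at 8.0 and 9.5 CPM constitutive and 19.6 and 20.9 CPM induced. Without induced replicate 1 or without induced replicate 2 only 2 members were called, KRT6A and CALML3 among the 31, and the adjusted p of CLCA2, KRT5, SERPINB5, TRIM29 and FGFBP1 lay within 0.0679 to 0.252. TRIM29 also missed without constitutive replicate 2, and FGFBP1 without constitutive replicate 1 and without either uninduced library.

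Cell adhesion genes are described by structure. Of 11 tested desmosome genes 5 were higher (45.5%, against 11.2% of all tested genes) and none lower (median 0.57, control median 0.31). PKP1, DSG3 and DSC3 among the 5 are also counted in the squamous list above. The desmosomal cadherin DSG3 was at 35.4 and 79.9 CPM constitutive and 10.9 and 8.07 CPM induced, a log2 difference of 2.60 ± 0.47 (SE, n = 2 per group; edgeR adjusted p = 0.00904). DSC3, a desmocollin of basal layers, had 1.32 ± 0.23, but its controls differed by 1.00. Of 13 hemidesmosome and laminin anchoring genes 7 were higher (53.8%) and none lower, with a median of 1.36 against 0.06 in the controls. DST among the 7 is also counted in the squamous list. LAMA3 and LAMB3, chains of the epithelial anchoring laminin, were at 76.3 and 198 CPM and at 175 and 153 CPM constitutive, against 20.9 and 18.1 CPM and 33.0 and 29.9 CPM induced. Their differences were 2.82 ± 0.41 and 2.38 ± 0.39. Of 14 genes of general basement membranes 2 were higher and 2 lower (28.6%), with a median of −0.12. The lower ones were the laminin chain LAMC1 (−1.11 ± 0.26) and the collagen COL4A2 (−0.79 ± 0.21). Leaving out induced replicate 1 left 0 desmosome, 2 anchoring and 0 basement membrane genes called, and the same numbers resulted without induced replicate 2. No basement membrane gene was called without either uninduced library, and 4 were lower without constitutive replicate 2. The genes named here then had adjusted p of 0.0679 to 0.252, and LAMC1 and COL4A2 also missed without constitutive replicate 1 or either uninduced library.

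Only 3 of 19 listed cornified envelope genes were tested and 2 were higher, FLG and PPL. FLG, the filaggrin precursor of the outer epidermis, was at 94.9 and 58.6 CPM constitutive, 3.09 and 3.34 CPM induced, 0.805 and 0.972 CPM uninduced and 2.22 and 13.8 CPM with GFP. The direct log2 difference of 4.57 ± 0.57 (SE, n = 2 per group; edgeR adjusted p = 0.0019) stood beside a control difference of 3.22. Of 9 tested S100 genes, calcium-binding proteins of which many are epidermal, 6 were higher (66.7%, against 11.2% of all tested genes). Their median was 1.29 and the control median 0.09. S100A10 was at 629 and 483 CPM constitutive and 233 and 220 CPM induced, a difference of 1.29 ± 0.22. Without induced replicate 1 no gene of either list was called, with adjusted p of 0.0694 to 0.223. Without induced replicate 2 FLG was the 1 gene of both lists still called. Of the S100 genes 3 were called without either uninduced library and 4 without constitutive replicate 1.

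The promoter of CLCA2 is shown because this known p63 target was higher with constitutive than with induced DNp63 and holds a match to the p53-family double core, written by its name alone, in the 250 bases before its start (RefSeq, GRCh38.p14, chr1:86423921-86424170, plus strand; the match, in capitals, begins 172 bases before the start). The core pattern reads the same on both strands, so 1 search covers both, while the matched letters themselves need not. The promoter of MIR205HG, described above, held no match in the same window, and that of FLG held 1.
CLCA2 promoter: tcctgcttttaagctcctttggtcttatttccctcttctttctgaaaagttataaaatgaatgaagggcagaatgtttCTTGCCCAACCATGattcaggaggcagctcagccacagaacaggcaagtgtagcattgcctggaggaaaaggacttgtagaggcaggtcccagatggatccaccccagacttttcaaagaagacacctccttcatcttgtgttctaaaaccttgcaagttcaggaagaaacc
Windows of 300 bases, 250 before to 50 after the start, were listed once for 6602 of the 12303 tested genes, and 3.33% of them held the core. It was in 17 of 348 such windows of genes higher with constitutive DNp63 (4.89%) and 16 of 368 of lower genes (4.35%). A match is a description of the letters and not a bound site.

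SOX2, a transcription factor of squamous lung tumours and of neural progenitors, was lower with constitutive DNp63. It was at 68.3 and 96.4 CPM constitutive, 337 and 278 CPM induced, 575 and 537 CPM uninduced and 278 and 517 CPM with GFP. The direct log2 difference was −1.90 ± 0.29 (SE, n = 2 per group; edgeR adjusted p = 0.00501), the control difference −0.48, and the DNp63 groups did not overlap. POU3F2, the neural factor BRN2, was at 2.86 and 12.4 CPM constitutive and 31.7 and 25.2 CPM induced. Its difference of −1.82 ± 0.57 missed the threshold (adjusted p = 0.0624). TP73, the remaining p53 relative, was at 8.29 and 8.34 CPM constitutive and 8.65 and 9.64 CPM induced, a difference of −0.13 with a 95% interval of −0.81 to 0.54. Of 11 tested neural progenitor and neural transcription factor genes 2 were lower and none higher (median −0.40, control −0.18), the intermediate filament NES at 1.43 and 4.27 CPM constitutive against 18.5 and 13.4 CPM induced, and the Hes factor HES6 at 10.6 and 7.76 CPM against 24.3 and 23.4 CPM. NES also differed in the controls, by −1.46. The share of the list that was called, 18.2%, was near the 11.2% of all tested genes. Without induced replicate 1 SOX2, NES and HES6 had adjusted p between 0.0823 and 0.258. Without induced replicate 2 SOX2 and NES still passed. Without constitutive replicate 2 the neural list had 4 lower genes.

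Among 16 tested epithelial transcription factors 3 were higher and 2 lower (31.2%, against 11.2% of all tested genes). KLF5, a factor of proliferating epithelium, was at 760 and 647 CPM constitutive, 172 and 181 CPM induced and 113 to 248 CPM in the controls, a log2 difference of 2.00 ± 0.25 (SE, n = 2 per group; edgeR adjusted p = 0.00191). EHF, an Ets factor of epithelia, was at 19.1 and 6.79 CPM constitutive and 0.494 and 1.18 CPM induced, a difference of 3.99 ± 0.68. OVOL1, a factor of epidermal differentiation, was at 1.36 to 2.75 CPM in the controls, 5.68 and 7.28 CPM induced and 24.6 and 17.3 CPM constitutive, with a direct difference of 1.69 ± 0.35. FOXA2, a factor of airway and gut endoderm, was at 17.7 and 22.7 CPM constitutive and 92.5 and 91.9 CPM induced, a difference of −2.18 ± 0.30 against 0.12 in the controls. All 4 missed without induced replicate 1, at adjusted p of 0.0574 to 0.161, and EHF and OVOL1 without induced replicate 2. OVOL1 also missed without constitutive replicate 1, at 0.0554. Of 30 tested genes reported as direct p63 targets 7 were higher and 4 lower (36.7%; median 0.35, control 0.17). HAS3 and CYP24A1 were the members called in every fit, both lower. The p63 targets' counts were 0 and 2 without induced replicate 1, 1 and 2 without induced replicate 2, and 6 and 7 without constitutive replicate 2.

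The called genes of mitosis were all lower with constitutive DNp63. All 29 tested members had negative direct differences, and 18 of them passed the test (62.1%, against 11.2% of all tested genes). The median was −1.29 against 0.00 in the controls. Libraries of 1 group also differed over this list, with a median log2 difference, replicate 1 minus 2, of −0.70 with GFP and 0.79 constitutive. The control median thus averages GFP libraries that disagree. CDC20, an activator of the anaphase-promoting complex, was at 94.6 and 72.0 CPM constitutive, 273 and 263 CPM induced and 178 to 244 CPM in the controls, a log2 difference of −1.69 ± 0.22 (SE, n = 2 per group; edgeR adjusted p = 0.00198). KIF20A, a kinesin of cytokinesis, was at 51.1 and 35.3 CPM constitutive and 180 and 171 CPM induced, a difference of −2.03 ± 0.27. PTTG1, the securin, was at 45.1 and 43.8 CPM constitutive and 197 and 183 CPM induced, a difference of −2.09 ± 0.27. The median of the list was −0.99 for constitutive DNp63 minus GFP and 0.28 for induced minus uninduced. Without induced replicate 1 no mitotic gene was called, with adjusted p of 0.0522 to 0.135 for the 3 named here, and without induced replicate 2 the count was 4. It was 10 without either uninduced library or constitutive replicate 2, and 22 to 25 without the other 3 libraries in turn.

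DNA replication genes gave another pattern. Of 39 tested, 6 were lower with constitutive DNp63 and none higher, with a median of −0.55, and the median in the controls was −0.63, so GFP stood below uninduced by a similar amount. The 6 are 15.4% of the list, near the 11.2% called among all tested genes. Between replicates 1 and 2 the median difference of this list was −0.56 with GFP and 0.35 constitutive. RRM2, the ribonucleotide reductase subunit, was at 26 and 22.9 CPM constitutive, 69.7 and 64.5 CPM induced, 131 and 146 CPM uninduced and 52.8 and 94.4 CPM with GFP. Its direct log2 difference was −1.46 ± 0.27 (SE, n = 2 per group; edgeR adjusted p = 0.00978) and its control difference −0.90. E2F2, an activator of S phase genes, had −1.51 ± 0.34 directly and −0.90 in the controls. The list had 0 called genes without induced replicate 1 and without induced replicate 2, 2 without either uninduced library, 9 without constitutive replicate 1 and 12 without either GFP library, and RRM2 and E2F2 then lay within adjusted p of 0.0717 to 0.231 when an induced library was left out. E2F2 also missed without constitutive replicate 2.

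p53 target genes had, by median, a larger difference between the control libraries than between the DNp63 libraries. Of 30 tested, 9 were higher and 1, CCNG1, lower in the direct comparison (33.3%, against 11.2% of all tested genes). The median was 0.65, and the control median was 1.17. MDM2 was at 79.4 and 59.5 CPM constitutive, 28.8 and 20.3 CPM induced, 27.0 and 25.9 CPM uninduced and 199 and 117 CPM with GFP. Its log2 difference was 1.49 ± 0.29 in the direct comparison (SE, n = 2 per group; edgeR adjusted p = 0.0122) and 2.58 in the controls (adjusted p = 0.0418). The control call was lost without either uninduced library (adjusted p = 0.596 and 1) and without either induced library (0.204 and 0.2). TIGAR, a p53-controlled regulator of glycolysis, was at 30.9 and 45.4 CPM constitutive and 28.5 and 27.1 CPM with GFP, against 3.46 and 5.11 CPM induced and 4.43 and 7.58 CPM uninduced. It was high in both groups of the constitutive system and low in both of the inducible one, with differences of 3.18 ± 0.36 and 2.16. PHLDA3, an inhibitor of Akt, had 3.24 ± 0.35 and 1.45, and TNFRSF10B, a death receptor, 1.69 ± 0.24 and 1.41. The constitutive effect had a median of −0.54 over the list and the induced effect −0.12. The direct counts of the list were 0 without induced replicate 1, with adjusted p of 0.0519 to 0.103 for the genes named here, and 2, without MDM2 and TNFRSF10B, without induced replicate 2. CCNG1, chosen after its value of −1.31 was seen, also missed without either uninduced library and without constitutive replicate 2.

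Genes of the ATF4 and ER stress responses had positive medians in both comparisons as well. Heat shock chaperone genes had medians of −0.18 directly and −0.26 in the controls, and NRF2 and antioxidant genes 0.01 and 0.11. All 36 tested genes of the ATF4 response to amino acid shortage had positive direct differences and 16 passed (44.4%, against 11.2% of all tested genes). The median was 1.33 directly and 0.72 in the controls. Libraries of 1 group also differed over this list, with a median log2 difference, replicate 1 minus 2, of 1.29 with GFP and 0.87 constitutive. GDF15, a stress cytokine, was at 347 and 149 CPM constitutive, 22.6 and 18.5 CPM induced, 28.4 and 21.1 CPM uninduced and 177 and 51.0 CPM with GFP. The log2 difference was 3.58 ± 0.56 (SE, n = 2 per group; edgeR adjusted p = 0.00514), and 2.20 in the controls. NUPR1, a stress-induced nuclear protein, was at 299 and 127 CPM constitutive and 22.2 and 35.6 CPM induced, a difference of 2.89 ± 0.39. All 22 tested ER chaperone and unfolded protein genes were positive and 6 passed (27.3%), with a median of 1.02, and 0.43 in the controls. Between replicates 1 and 2 the median difference of this list was 0.73 with GFP and −1.25 constitutive. HSPA5, the ER chaperone BiP, was at 1426.7 and 4191.8 CPM constitutive and 419 and 383 CPM induced, but the GFP libraries held 1939.1 and 394 CPM and the uninduced ones 375 and 374. Both groups of the constitutive system thus had libraries that disagreed in HSPA5, and its difference of 2.81 ± 0.64 fell to 1.83 (adjusted p = 0.0535) without constitutive replicate 2. ATF4 and ER counts were 0 and 0 without induced replicate 1, 1 and 0 without induced replicate 2, 11 and 3 without either uninduced library, 10 and 15 without constitutive replicate 1, and 22 and 2 without constitutive replicate 2. NUPR1 was the member that passed without induced replicate 2, and GDF15 and HSPA5 missed without either induced library, at adjusted p of 0.0679 to 0.187.

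The called genes of 4 lists, for cytosolic ribosomes, respiration, mitochondrial translation and lipid synthesis, were all lower with constitutive DNp63. All 45 cytosolic ribosomal protein genes had negative direct differences and 23 passed, with a median of −0.66 against −0.05 in the controls. RPS3 was at 1600.1 and 1817.3 CPM constitutive, 3087.3 and 3304.9 CPM induced and 2480.0 to 3115.7 CPM in the controls, a log2 difference of −0.90 ± 0.17 (SE, n = 2 per group; edgeR adjusted p = 0.0109). Of 38 nuclear-encoded respiratory chain genes 8 were lower and none higher (median −0.55, control −0.06). Of 37 mitochondrial ribosome and translation genes 6 were lower (median −0.32, control −0.01), among them MRPL24 at 75.4 and 91.4 CPM constitutive and 218 in both induced libraries. Shares called were 51.1% of the cytosolic ribosomal, 21.1% of the respiratory and 16.2% of the mitochondrial ribosome and translation genes, against 11.2% of all tested genes. Of 33 cholesterol and fatty acid synthesis genes 10 were lower (30.3%) and none higher (median −0.82, control 0.11). Between replicates 1 and 2 the median difference of this list was −0.81 with GFP and −0.43 constitutive. EBP, a sterol isomerase, was at 38.9 and 47.5 CPM constitutive and 109 and 114 CPM induced, a difference of −1.37 ± 0.25.

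The calls of these 4 lists also changed with the library left out, while their medians did not change sign under any of the 3 other scalings tried. Without induced replicate 1, and without induced replicate 2, none of their genes was called. Without either uninduced library 7 ribosomal, 2 respiratory, 1 mitochondrial ribosome and 5 lipid genes were called. The ribosomal count was 13 and the lipid count 4 without constitutive replicate 1. The respiratory count was 12 without either constitutive library and 14 without either GFP library, and the lipid count was 19 without constitutive replicate 2 and 18 without either GFP library. Mitochondrially encoded genes are not in the count table.

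**Figure D4:**
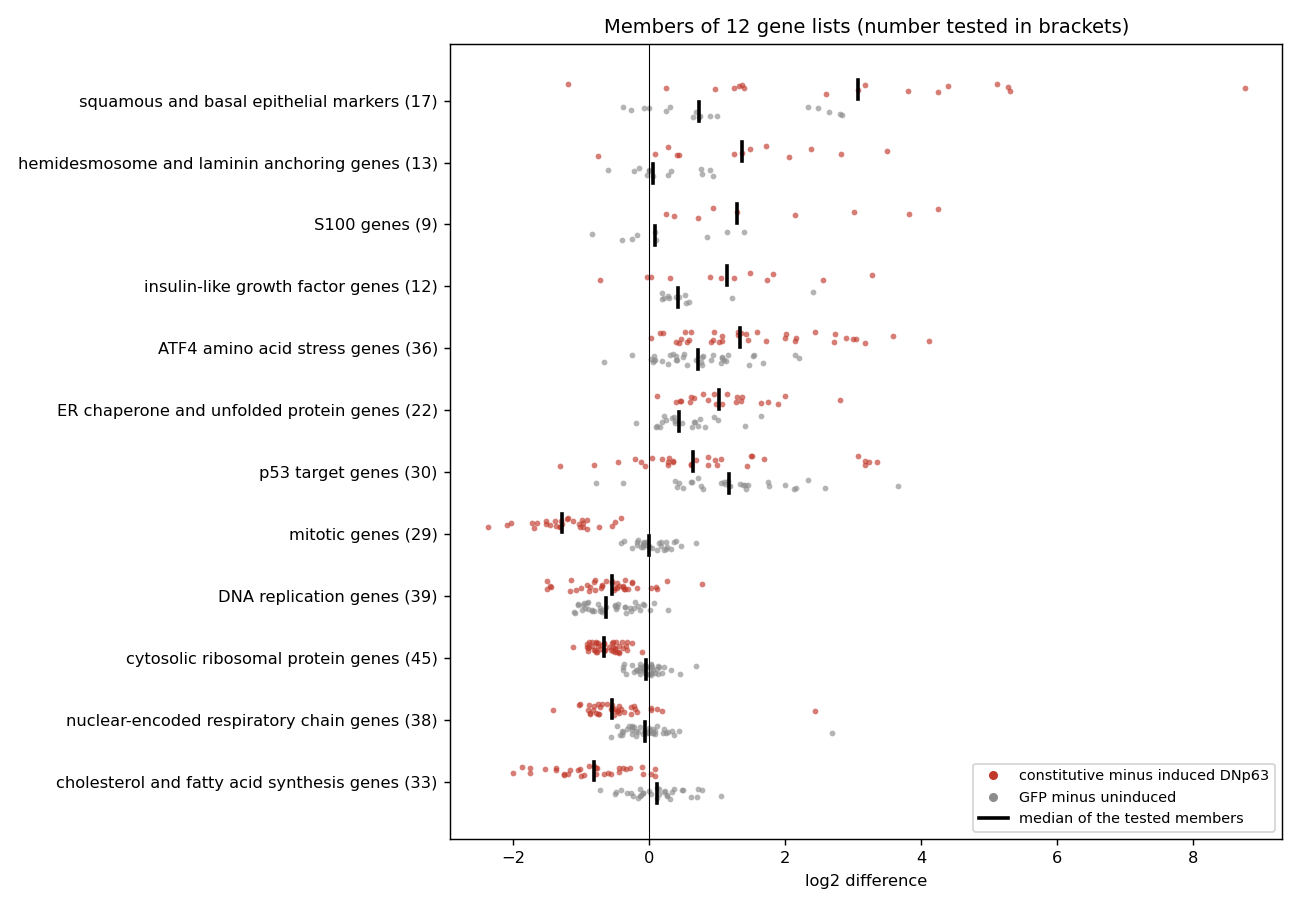
Log2 differences of the tested members of 12 lists, constitutive minus induced DNp63 in red and GFP minus uninduced in grey, with black bars at the medians. Squamous, mitotic, ribosomal and lipid synthesis genes are apart from 0 in red and near it or less far in grey, while p53 target and DNA replication genes lie to the same side of 0 in both.

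The 4 signalling lists described next held shares of called genes from 58.3% for insulin-like growth factor genes to 14.3% for Notch genes, against 11.2% of all tested genes. Of 12 tested insulin-like growth factor genes 7 were higher and none lower (median 1.14, control 0.42), led by the adaptor IRS1 at 39.1 and 42.9 CPM constitutive against 6.67 and 7.28 CPM induced, a log2 difference of 2.56 ± 0.30 (SE, n = 2 per group; edgeR adjusted p = 0.00153). Of 33 Wnt pathway genes 5 were higher and 4 lower. The Wnt receptors FZD1, FZD2 and FZD8 were lower, and FZD1 was at 481 to 765 CPM in the controls, 197 and 185 CPM induced and 38.6 and 59.0 CPM constitutive. Its direct difference was −1.96 ± 0.24, and 0.42 in the controls. WNT5A, a ligand, was at 584 and 689 CPM constitutive and 255 and 203 CPM induced, a difference of 1.47 ± 0.21, with 0.92 in the controls. Of 32 axon guidance genes 7 were higher and 2 lower (median 0.66, control 0.39). UNC5B, a netrin receptor, was at 674 and 553 CPM constitutive, 102 and 94.8 CPM induced and 6.14 to 20.7 CPM in the controls, a difference of 2.64 ± 0.36. EPHA2, an ephrin receptor, had 1.95 ± 0.23 and, in the controls, 1.16. Of 21 Notch pathway genes 2 were higher and 1, LFNG, lower, a share near that of all tested genes. Without induced replicate 1 FZD1, FZD2, FZD8, IRS1, WNT5A, UNC5B and EPHA2 all missed, with adjusted p of 0.0511 to 0.192, and without induced replicate 2 UNC5B and WNT5A missed. The count of insulin-like growth factor genes was then 0 and 1, and 4 without either uninduced library. For Wnt genes it was 0 higher and 0 lower, then 0 and 3, and 2 higher without either uninduced library. For axon guidance genes it was 1 and 0, then 2 and 1, and 5 lower without constitutive replicate 2. The 2 higher Notch genes were not called without an induced library and 4 were higher without constitutive replicate 1.

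Mesenchymal genes went both ways. Of 11 tested, 5 were higher and 2 lower with constitutive DNp63 (63.6%, against 11.2% of all tested genes). The median was 1.49 and the control median 0.36. CDH11, a mesenchymal cadherin, was at 198 and 733 CPM constitutive, 78.6 and 71.2 CPM induced and 9.26 to 26.2 CPM in the controls. The log2 difference of 2.64 ± 0.46 (SE, n = 2 per group; edgeR adjusted p = 0.00809) was 1.40 without constitutive replicate 2. FN1, fibronectin, was at 65.4 and 113 CPM constitutive and 32.7 and 31.1 CPM induced, a difference of 1.49 ± 0.27. TGFBI, a matrix protein, was lower at 239 and 386 CPM constitutive against 892 and 969 CPM induced (−1.57 ± 0.32). CDH2, the neural cadherin, was also lower (−1.26 ± 0.27) and was chosen after its value was seen. The defining fibroblast markers COL3A1 and DCN had no count, and the summed level of 7 fibroblast markers was 16.9 to 30.8 CPM constitutive and 8.4 to 15.1 CPM induced. The part of such cells in these values was not tested. No mesenchymal gene was called without induced replicate 1 or without induced replicate 2, with adjusted p of 0.0954 to 0.258, and 3 were called higher without constitutive replicate 1 or either uninduced library.

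A ranking of all 4 groups by level was possible for 558 genes, 4.54% of those tested, whose groups did not overlap. TP63's order, GFP lowest, then uninduced, induced and constitutive, was taken by 72 genes (0.585%), the most frequent of the 24 possible orders, and its reverse by 56 genes (0.455%), rank 4 of the 24. Orders unrelated to TP63 came close: 68 genes (0.553%) had constitutive DNp63 lowest, then GFP, induced and uninduced, and 68 had constitutive DNp63 lowest, then GFP, uninduced and induced. Leaving out 1 library raised the counts to between 98 and 231 rising and 93 and 212 falling genes, the highest without GFP replicate 1. Listed in that order, DSG4, a desmosomal cadherin of hair, was at 0.739 and 0.847, 1.81 and 2.04, 4.20 and 2.95, and 88.3 and 29.7 CPM. MTSS1, an actin-binding membrane protein, was at 8.50 and 6.78, 11.3 and 10.3, 19.4 and 15.9, and 238 and 97.6 CPM. ADH1C, an alcohol dehydrogenase, had the reverse ranking with 35.5 and 41.1, 18.7 and 20.0, 9.88 and 8.85, and 0.286 and 1.94 CPM. TNFAIP2 did so with 60.6 and 51.2, 49.7 and 46.8, 22.5 and 27.1, and 5.43 and 8.34 CPM. Their direct log2 differences were 4.0 ± 0.49, 3.23 ± 0.37, −2.90 ± 0.48 and −1.82 ± 0.27, each short of the threshold without induced replicate 1 (adjusted p of 0.0522 to 0.146), and ADH1C and TNFAIP2 also without induced replicate 2. ADH1C was at −4.94 without constitutive replicate 2.

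Induced DNp63 against uninduced cells changed 35 genes, 0.284% of those tested, with 29 higher and 6 lower (0.0488%). The genes are chosen by that difference, so what follows is a description, and it shares the induced libraries with the direct comparison. Of the 28 higher genes other than TP63, 27 were also higher in constitutive DNp63 than in GFP libraries by sign and 25 by test, where 1004 genes (8.16%) were called and 4.17% were called higher. The constitutive effect was the larger one for 20 of the 28, and the medians were 2.74 induced and 3.81 constitutive. All 6 lower genes were lower with constitutive DNp63 too, each by more (medians −1.44 and −3.59). Leaving out 1 library kept 2 of the 35 induced calls in every fit, TP63 and KRT74, and 30 of the 35 were called in at most 4 of the 8 fits. Except for genes named elsewhere here, the members of these 35 were chosen for this description and not by the rule for named genes.

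These genes differed in whether the higher TP63 level went with a higher level of their own. SLC7A8, an amino acid transporter, was at 138 and 136 CPM induced and 323 and 338 CPM constitutive, against 27.7 to 33.0 CPM in the controls. The direct log2 difference was 1.27 ± 0.18 (SE, n = 2 per group; edgeR adjusted p = 0.0029). SGK1, a serum-regulated kinase, was at 9.76 and 8.26 CPM induced and 25.4 and 59.0 CPM constitutive, a difference of 2.23 ± 0.41. MOBP, a myelin protein, was at 6.18 and 7.67 CPM induced and 0.857 and 2.33 CPM constitutive, against 25.6 to 49.7 CPM in the controls, a difference of −2.00 ± 0.43. All 3 missed without induced replicate 1 and without induced replicate 2, at adjusted p within 0.0655 to 0.207.

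For other genes the direct difference did not pass the test. SP6, an epithelial factor of tooth and skin, was at 399 and 363 CPM induced and 394 and 444 CPM constitutive, against 16.3 to 45.1 CPM in the controls. The groups overlapped, and the direct log2 difference was 0.14 with a 95% interval of −0.56 to 0.83, which TP63's own difference of 2.76 lies outside. KRT74, a keratin of the hair root sheath, was at 129 and 103 CPM induced and 86.6 and 82.2 CPM constitutive, against 9.24 to 12.3 CPM in the controls. Its direct difference was −0.46, with an interval from −0.92 to −0.00, and the DNp63 groups did not overlap. LINGO1, a neuronal membrane protein, had 0.34 (−0.18 to 0.85), and HOXC13, a homeobox factor of hair, 0.80 (0.11 to 1.5), with edgeR adjusted p of 0.369 and 0.124. The DNp63 groups overlapped in LINGO1 and not in HOXC13. DBH, dopamine beta-hydroxylase, had 0.24, but the interval of −1.07 to 1.55 is wide. A p above the threshold does not show that levels are alike. DBH and HOXC13 overlap or adjoin antisense genes, DBH-AS1 and HOXC13-AS, and whether the counting used strand is not stated in the labels.

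In 3 genes the induced effect was not followed by the constitutive one. CYP24A1 was higher with induced DNp63 by 1.95 on the log2 scale and lower with constitutive DNp63 by sign and by test (−2.77). MT2A, a metallothionein, was at 1159.5 and 1132.1 CPM induced, 215 and 552 CPM constitutive and 199 to 289 CPM in the controls. Its effects were 2.23 induced and 0.56 constitutive, and the direct difference of −1.58 ± 0.36 (SE, n = 2 per group; edgeR adjusted p = 0.0228) became −2.41 without constitutive replicate 2. Of 7 tested metallothionein and zinc genes 2 were lower in the direct comparison, MT2A and MT1X (28.6%, against 11.2% of all tested genes). MT1X was at 1027.0 and 1242.0 CPM induced and 332 and 465 CPM constitutive. HSP90AA1, the cytosolic chaperone HSP90, was at 1803.1 and 1473.2 CPM induced, 797 and 951 CPM constitutive and 508 to 647 CPM in the controls, a direct difference of −0.91 ± 0.20. These 4 genes are highest in the libraries that had doxycycline, and its part and that of induced DNp63 cannot be told apart. MT2A, MT1X and HSP90AA1 missed without induced replicate 1 or 2, at adjusted p of 0.0654 to 0.259, while CYP24A1 passed in every fit of the direct comparison.

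**Figure D5:**
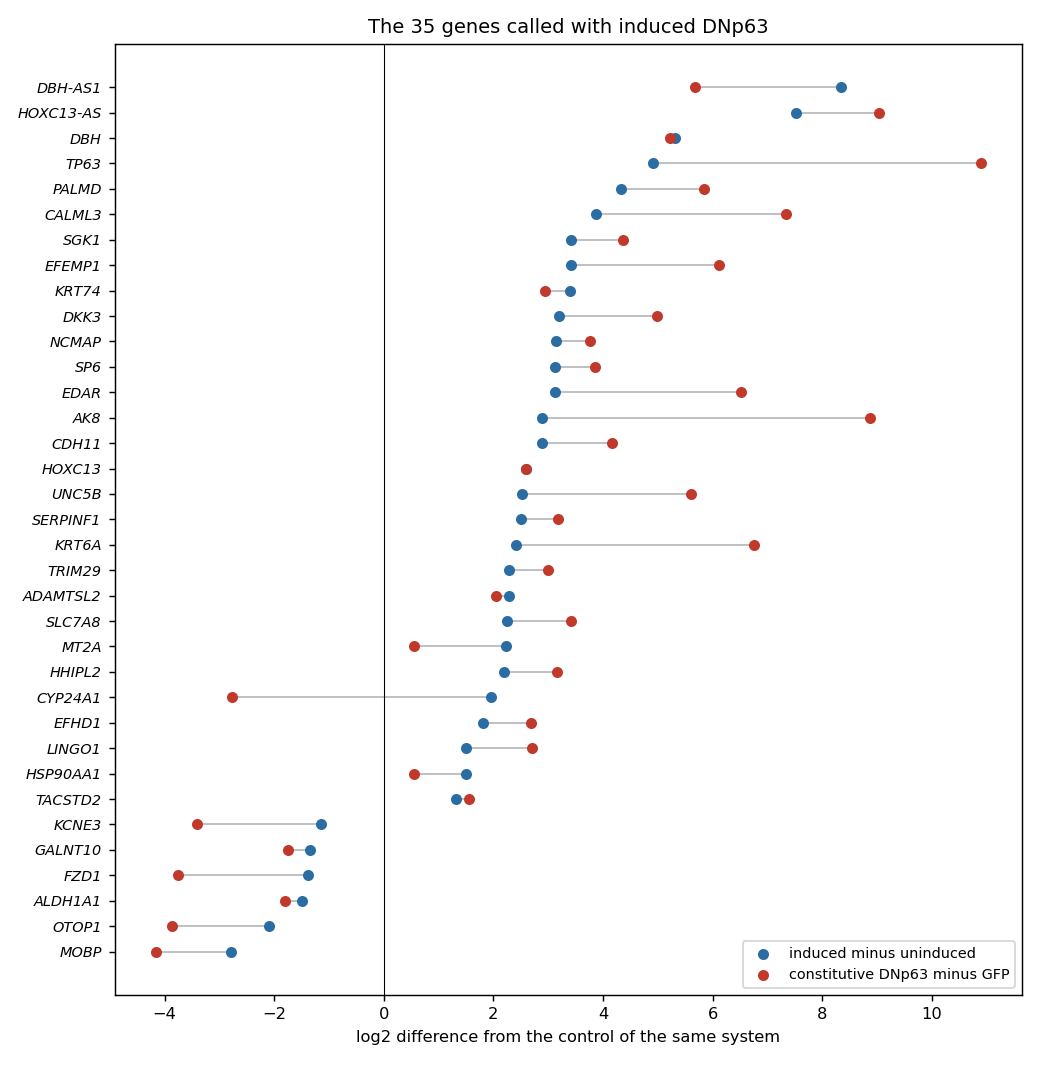
The 35 genes called between induced and uninduced libraries, with their log2 difference there in blue and that between constitutive DNp63 and GFP libraries in red. Red lies farther than blue on the same side of 0 for all 6 lower genes and for 20 of the 28 higher genes other than TP63, and CYP24A1 is on opposite sides of 0. Values of the antisense genes HOXC13-AS and DBH-AS1 rest on few control counts.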

How the data were processed

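RNA of 8 LK2 libraries was polyA-selected, made into directional libraries and read from both ends, per the labels' protocols. The authors deposited whole-number read counts, 1 column per library, made with TopHat2 2.1 alignments to hg19 (GRCh37), SAMtools and HTSeq, with DESeq2 also listed, per the submitters' processing notes. The annotation and strand setting: not given in the sources used here. Genes were named by the table's symbols.

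Genes were kept by filterByExpr with a minimum count of 10 (12303 of 26760; 8601 had no count). Libraries were scaled by trimmed means of M-values. A mean per group was fitted over all 8 libraries with edgeR 4.0.16 (quasi-likelihood, legacy estimates; R 4.3.3, limma 3.58.1), and two-sided p-values were adjusted by Benjamini-Hochberg over the 12303 genes; called means an adjusted p below 0.05. When a fit left out 1 library, the lone sample of its group was assumed to vary like the other groups. DESeq2 1.42.0, other scalings, no filter, blocks and smaller sets of libraries were alternatives. Scripts were tested on simulated data.

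Members and lists were chosen with earlier results of these data known. Some lists share members, so a gene can be counted in more than 1 list. Named genes were TP63, SOX2, POU3F2 and TP73; the 12 largest direct differences each way among genes called in every leave-out fit with a mean of at least 5 CPM; up to 4 genes of each list by p; the gene called in both comparisons; and the 6 largest each way in TP63's order. Some genes that the rule gives are not reported here. The rule gave no gene for the control comparison or the difference of both. Groups with 3 or fewer counts are compared by a ratio of counts with a 95% exact interval; the floor of 3 counts over a group covers counting error only. Replicate numbers were not taken to pair libraries, since the labels give them no shared culture or day, but GFP and constitutive libraries of 1 number share a vector. Deviations of same-numbered libraries correlated by 0.22 between these groups and by −0.0923 to −0.00361 between other groups. In a single library 3 counts are 0.292 to 1.11 CPM.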

Additional observations from a re-analysis of the deposited data

Results flagged for a closer look

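For 41 named genes the constitutive and the induced effect of DNp63 differed by the test of the difference itself (edgeR adjusted p below 0.05; 67 of 12303 genes, 0.545%, passed). The difference uses the 4 DNp63 libraries of the direct comparison, and no gene passed it in every leave-out fit. It is given here as the direct minus the control log2 difference. TP63 itself had 5.99.

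Epithelial genes with a higher value were KRT6A (4.33), KRT23 (2.70), CALML3 (3.45), DSG4 (5.25) and PLEC (1.73). Other genes with a higher value were C1orf116 (5.13), GPR37 (3.77), EFNB1 (2.17), UNC5B (3.08), MTSS1 (3.75) and the membrane metalloproteinase MMP14 (1.74). In AK8 (6.00), MIR205HG (6.57) and PDE7B (8.70) the GFP libraries together held 2, 1 and 0 counts, so these values depend on the fitted prior. For PDE7B, a phosphodiesterase, 16 counts were present uninduced, which puts GFP at least 2.60-fold lower.

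Mitotic genes with a lower value were CDC20 (−1.90), KIF20A (−2.27) and FAM64A (−2.43). Enzymes with a lower value were CYP24A1 (−4.73), HAS3 (−2.88), ALDH3A1 (−2.63) and ADH1C (−3.88). Transcriptional regulators with a lower value were FOXA2 (−2.30), ATOH8 (−3.65), CEBPD (−2.41) and ID3 (−1.71). Receptors and signalling genes were FZD1 (−2.38), FZD8 (−2.58), PLXND1 (−1.62), LFNG (−1.68), CHN2 (−2.68) and TNFAIP2 (−2.03). FOXQ1 had −2.52, KCNE3 −2.27, TUBB2B −1.96 and ADD2 −1.42. VSNL1 had −1.80, PRR15 −1.94, and the noncoding MIAT and OLMALINC −2.95 and −1.99. GRIK3, a kainate receptor, had −5.65, with 3 counts in the constitutive libraries together against 157 induced, a ratio of 0.0291 (95% exact interval 0.00594 to 0.0866, counting error only).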

How the results depend on the processing

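Calls in the direct comparison depended on the libraries more than on the scaling. With 1 library left out, 14 to 1100 genes were higher and 17 to 1018 lower in the direct comparison, 0 to 33 and 0 to 10 in the controls, and 0 to 176 and 0 to 270 in the difference; TP63's order held 98 to 231 rising and 93 to 212 falling genes. Without the filter on low counts 1141 and 1165 genes were called directly, 177 and 68 in the controls and 244 and 314 in the difference. The 4 DNp63 libraries alone gave 416 and 318, and the 4 control libraries alone 0 higher. DESeq2 gave 44 and 13 in the controls and 120 and 139 in the difference. The replicate block over all groups gave 740 higher and 676 lower direct calls and 1 lower in the controls, and a replicate block for the vector number within the constitutive system 1404 and 1376, 77 and 27, and 208 and 264. GRM8, not called at 0.11, was at −0.11 and −0.28 with these blocks and from −1.22 to 0.73 when a constitutive library was left out (the lower value without replicate 2), and NKX2-1 from −0.97 to 0.00 (the latter without replicate 2). The cause of these changes was not tested. The control comparison had too few calls to show stability, and library totals of 2758158 to 10372248 set how weakly expressed a gene can be and still be tested.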
